A study of Mus musculus with 105 samples.

Results

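The comparison asks what stopping translation did to mRNAs that were decaying in activated mouse T cells whose transcription had been shut off. Triptolide plus cycloheximide for 3 h (3 libraries) was set against triptolide alone for 3 h (3 libraries), so 6 libraries were compared, all the members of 2 of the 35 groups of the series, each of 3 libraries. The cells were CD4+ T cells of female C57BL/6J mice aged 6 weeks, taken from spleen and lymph nodes, enriched by negative selection and activated on beads carrying CD3 and CD28 antibodies. Both groups received 25 µM triptolide, and the added drug was cycloheximide at 100 µg/ml. Libraries of activated cells collected at 0 h of the triptolide series gave the starting level. Libraries with 65 µM DRB in place of triptolide, with 2 µg/ml harringtonine in place of cycloheximide, at 1 h, of resting cells, or without a transcription inhibitor are used only where named. Total RNA was sequenced from equal numbers of cells, and ERCC RNAs (synthetic spike-ins) were counted with the genes. The labels number the replicates 2, 3 and 4 and call them biological, and values below are given in that order. Which mouse a number stands for, and how long the cells had been activated before the drugs, are not given in the sources used here.

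Triptolide blocks the start of transcription through the helicase XPB of the general transcription factor TFIIH, so the mRNA left later reflects decay. Cycloheximide freezes elongating ribosomes on the mRNA, whereas harringtonine stops ribosomes just after initiation and lets those further along run off. Much mRNA decay is tied to translation, through codon content, nonsense-mediated decay and slow or stalled ribosomes. A further route uses AU-rich elements in the 3′ UTR, which the protein encoded by Zfp36 (tristetraprolin) and its relatives bind to recruit deadenylases. Cytokine and immediate early mRNAs of T cells are known targets of that route.

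The classic AU-rich nonamer, TTATTTATT, is shown in 3 mRNAs that fell with cycloheximide and 1 that rose, because it was found among both. Each line gives 29 bases of the 3′ UTR, 5′ to 3′ on the mRNA strand and written as DNA, with the first nonamer in capitals. The letters and positions come from the GENCODE transcripts on mm10.
Tnf, chr17:35199689-35199717, minus strand: tttgcacttaTTATTTATTatttatttat
Zfp36, chr7:28376951-28376979, minus strand: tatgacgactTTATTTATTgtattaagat
Lif, chr11:4272039-4272067, plus strand: aaaggggcctTTATTTATTatttaaaact
Nufip1, chr14:76136348-76136376, plus strand: tgggaataccTTATTTATTtatttattta
Overlapping matches included, the 3′ UTR held 5 nonamers in Tnf, 1 in Zfp36, 2 in Lif and 8 in Nufip1. Only the mRNA strand was searched. The nonamer contains the pentamer ATTTA.

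The triptolide libraries differed among themselves before any gene was looked at. Exon counts were 2460437, 1693459 and 3932393 with cycloheximide, against 2176699, 672633 and 1549083 with triptolide alone. Per ERCC count there were 13.8, 13.8 and 11.8 exon counts with cycloheximide, against 8.44, 14.7 and 6.90 with triptolide alone. Replicate 3 of triptolide alone therefore had the lowest depth and the highest ratio of the 6, and without it the groups did not overlap in that ratio. The ratio averaged 13.1 ± 1.18 with cycloheximide and 10.0 ± 4.15 with triptolide alone (SD, n = 3 each), against 22.7 ± 5.62 at 0 h (n = 3). As ratios of geometric means, 58.9% of the 0 h level was left with cycloheximide and 42.7% with triptolide alone. The geometric mean with cycloheximide was 138% of that with triptolide alone, and 172% without replicate 3 of triptolide alone. An exact permutation test, two-sided, gave p = 0.4 with all 6 libraries (n = 3 each), where the smallest possible value is 0.1, and within replicate numbers exact sign flips gave p = 0.5, with 0.25 the smallest possible. In bulk RNA a ratio of this kind cannot tell fewer cells from less RNA per cell.

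Markers fitted the labelled cell type. Summed CPM of the 7 markers of CD4+ T cells in the table ran from 2060 to 2700 with cycloheximide and from 2140 to 2220 with triptolide alone. CPM are read counts brought to a common library size with TMM factors (edgeR's trimmed-mean scaling). Of the other cell types looked for, 10 B cell genes summed to 93.6 to 209 CPM with cycloheximide, against 118 to 579 CPM with triptolide alone. The 8 myeloid genes summed to 11.5 to 13.8 CPM with cycloheximide, against 16.1 to 33.9 CPM with triptolide alone, and the 2 CD8 genes to 4.67 to 11.1 CPM against 4.84 to 15.7 CPM. The 4 NK genes, 1 of them at 0 in all 6 libraries, summed to 7.21 to 7.70 CPM with cycloheximide, against 3.23 to 3.48 CPM with triptolide alone. The 5 erythroid genes summed to 0 to 23.7 CPM with cycloheximide, against 1.74 to 34.0 CPM with triptolide alone. Of the CD4+ T cell markers 1 was called higher and 1 lower. Of the markers of these 5 other types, only 7 B cell, 3 myeloid, 1 CD8, 1 NK and 1 erythroid gene passed the filter on low counts. None of those tested was called in either direction, and the part of these other cell types in the changes below was not tested.

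**Figure D1:**
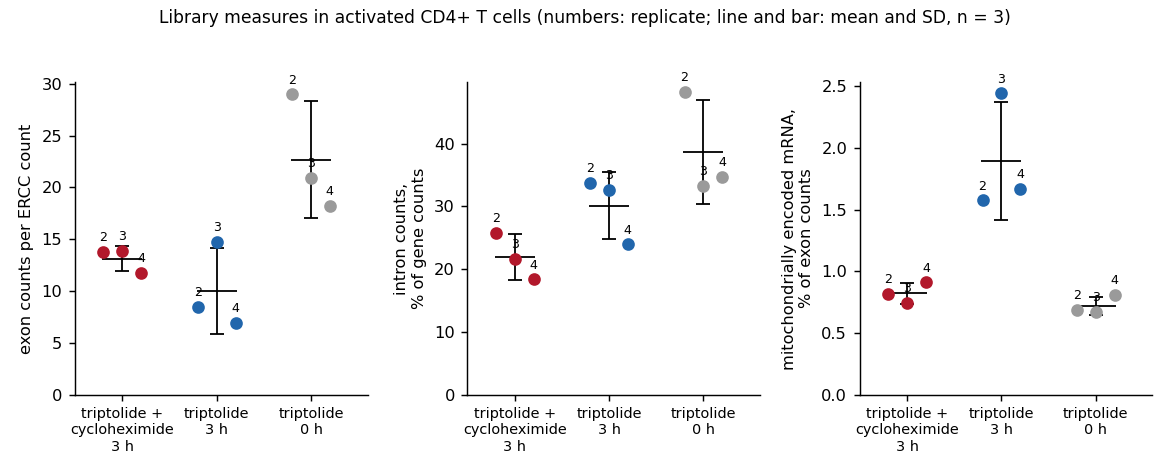
Exon counts per ERCC count, intron counts as % of exon plus intron counts, and mitochondrially encoded mRNA as % of exon counts, for each library of the cycloheximide, triptolide and 0 h groups. Points are libraries with their replicate number, lines and bars the mean and SD of 3. Replicate 3 of triptolide alone is the highest of its group for the ratio, at 14.7, and for mitochondrially encoded mRNA, at 2.44%.

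Adding cycloheximide raised some mRNAs and lowered others across the transcriptome. With edgeR's quasi-likelihood test at a Benjamini-Hochberg adjusted p under 0.05, 2936 of 10741 genes were called (27.3%), of which 1697 were higher (15.8%) and 1239 lower (11.5%) with cycloheximide. Leaving out replicate 3 of triptolide alone gave 2471 calls, 1576 higher and 895 lower. The lower calls numbered 592 (1400 higher) without cycloheximide replicate 3 and 768 (1467 higher) without triptolide replicate 4. With the replicate number as a block, 4518 genes were called, 2144 higher and 2374 lower, and they included all 2936. These changes are relative to the typical mRNA, since TMM factors centre on it, and the median log2 change of all genes was -0.0808. Scaled to the ERCC counts, the median moved to 0.621 and the calls became 3714 higher and 38 lower (4854 and 7 without replicate 3 of triptolide alone). Changes below are relative to the typical mRNA unless a value is said to be per ERCC count, and a fall of that kind can go with an unchanged or higher level per ERCC count. Expressed as the percentage of the 0 h level left after 3 h per ERCC count, the median gene kept 52.5% with cycloheximide and 32.4% with triptolide alone, or 25.8% with triptolide alone when its replicate 3 was left out.

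The 12 largest rises were of mRNAs that averaged 1.04 to 19.6 CPM with triptolide alone at 3 h. These 12 rises and the 12 falls below were drawn only from called genes whose groups did not overlap. That lack of overlap was therefore set by the choice, and it held for 39.7% of all genes tested. Plrg1 (chr3:83055522-83072355, plus strand), a component of the spliceosome, had 70.4, 98.8 and 90.0 CPM with cycloheximide, against 9.78, 3.48 and 6.46 CPM with triptolide alone. The log2 change of Plrg1 was 3.53 ± 0.38 (SE, adjusted p = 7.33e-12, n = 3 each). Of its 0 h level 54.2% was left with cycloheximide and 2.67% with triptolide alone. Nufip1, an assembly factor of box C/D snoRNPs, had 44.5, 59.0 and 72.7 CPM with cycloheximide, against 7.48, 3.48 and 5.65 CPM with triptolide alone. Its log2 change was 3.27 ± 0.34 (adjusted p = 4.11e-12). Its 3′ UTR held the most nonamers of the 4 mRNAs shown above, and the part of nonamers in the direction of change was not tested. Gemin5, which binds snRNAs for the SMN complex, had 145, 117 and 157 CPM with cycloheximide, against 21.3, 15.7 and 21.8 CPM with triptolide alone. Its log2 change was 2.79 ± 0.23 (adjusted p = 4.58e-16), with 61.1% left with cycloheximide and 5.53% left with triptolide alone.

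Others of the 12 largest rises were Pdcd2, a chaperone of a small-subunit ribosomal protein (log2 change 3.20 ± 0.42), Ngdn, a factor of small-subunit maturation (2.99 ± 0.36), Nifk, a nucleolar protein that binds Ki-67 (2.72 ± 0.28), and Rae1, an mRNA export factor (2.67 ± 0.28). Each of these 4 kept 44.1 to 55.0% of the 0 h level with cycloheximide and 3.65 to 4.73% with triptolide alone. Ndufaf5, an assembly factor of respiratory complex I, and Exog, a nuclease of mitochondria, had log2 changes of 2.88 ± 0.47 and 2.57 ± 0.45 on fewer reads. Adprm (2.79), Zfp746 (2.59) and Zfp7 (2.57) complete the list. All 12 were called in each of the alternatives that tested them, ERCC scaling and every single library left out included.

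The 12 largest falls, unlike the rises, lost some calls when the processing was changed. Zfp36, whose product is described above, had 4.24, 7.06 and 5.42 CPM with cycloheximide, against 21.3, 34.8 and 29.1 CPM with triptolide alone. The log2 change of Zfp36 was -2.31 ± 0.42 (adjusted p = 9.31e-06), and 8.49% of the 0 h level was left with cycloheximide and 26.7% with triptolide alone. Tnf, an inflammatory cytokine, had 6.36, 3.85 and 5.42 CPM with cycloheximide, against 15.5, 20.9 and 38.7 CPM with triptolide alone. The log2 change of Tnf was -2.22 ± 0.40 (adjusted p = 9.14e-06), and 5.21% was left with cycloheximide and 14.6% with triptolide alone. Lif, a cytokine of the interleukin-6 family, had 10.6, 5.77 and 10.3 CPM with cycloheximide, against 41.4, 31.3 and 58.9 CPM with triptolide alone, a log2 change of -2.28 ± 0.45 (adjusted p = 5.41e-05).

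Dusp2, a nuclear phosphatase of MAP kinases, changed by -2.19 ± 0.45, Socs1, an inhibitor of JAK kinases, by -2.17 ± 0.58, and the immediate early gene Ier2 by -2.14 ± 0.41. Between 3.14 and 11.2% of the 0 h level of these 3 was left with cycloheximide, and between 9.74 and 30.8% with triptolide alone. Of the other 6 largest falls, Mn1 (-2.53), Map3k13 (-2.37), Pawr (-2.30), Edn1 (-2.20) and Soga1 (-2.13) stood above their 0 h level with triptolide alone, at 199 to 1770% per ERCC count. With cycloheximide these 5 stood at 58.0 to 439%. Cspg5 fell by 2.12 on the log2 scale. The highest CPM of any of these 6 genes in the 6 libraries was 27.8. DESeq2 gave no adjusted p for the 6 and so called none, while its log2 changes ran from -2.53 for Mn1 to -2.07 for Cspg5. With ERCC scaling Pawr, Edn1, Soga1 and Cspg5 lost the call, as did Socs1. Pawr also lost it without cycloheximide replicate 3, without cycloheximide replicate 4 or without triptolide replicate 2, and Edn1 without cycloheximide replicate 3. Scaled to ERCC counts without replicate 3 of triptolide alone, all 24 of the largest changes kept their direction, and of the falls only Tnf and Lif were still called.

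How far an mRNA decayed without translation block was related to how it moved with cycloheximide. To avoid a shared library, genes were put in 5 equal bins by the percentage of their 0 h level left after 3 h of DRB alone, which blocks transcription elongation through the kinase CDK9. The bin with the least mRNA left (median 12.9% left with DRB) held 839 higher and 40 lower genes of 2149, and its median log2 change with cycloheximide was 0.758. The next bins held 575, 242 and 39 higher genes and 116, 176 and 392 lower ones, with median log2 changes of 0.315, 0.00707 and -0.314. In the bin with the most mRNA left (median 71.2% left with DRB), 2 genes were higher and 515 lower, and the median log2 change was -0.608. Per ERCC count, the median gene of the least stable bin kept 32.6% of its 0 h level with cycloheximide and 12% with triptolide alone. In the most stable bin the median gene kept 75.9% with cycloheximide and 70.0% with triptolide alone. The values with triptolide alone include its replicate 3, and the bins were not recalculated without it. Over all genes the median left with triptolide alone was lower without that library, as given above. Ordered instead by decay under triptolide in resting cells, the bins held 818, 510, 278, 87 and 4 higher genes and 51, 109, 203, 354 and 522 lower ones.

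**Figure D2:**
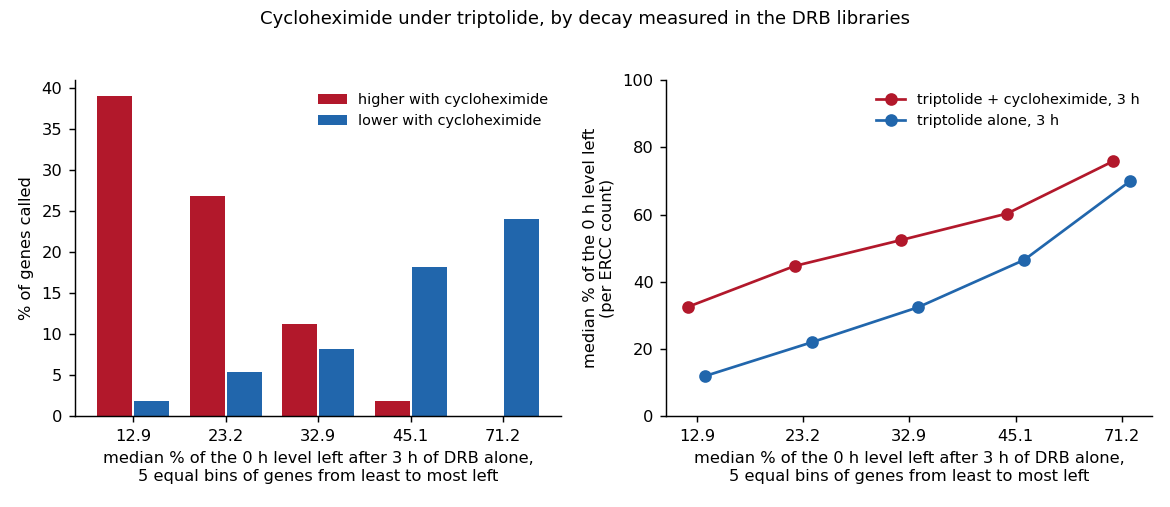
Genes in 5 equal bins by the percentage of the 0 h level left after 3 h of DRB alone (x, median of each bin). Values with triptolide alone include its replicate 3. Left, the % of genes called higher (39.0 to 0.0931) and lower (1.86 to 24.0) with cycloheximide added to triptolide; right, the median % of the 0 h level left per ERCC count with triptolide plus cycloheximide and with triptolide alone, which come closest in the most stable bin.

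For each list below, the shares to set beside its counts are those of all genes, 15.8% higher and 11.5% lower. Many genes for making, folding and degrading proteins rose with cycloheximide. Of 40 ribosome biogenesis factors tested, 24 were higher, none was lower and the median log2 change was 0.927. Wdr75, a protein of the small-subunit processome, had 172, 158 and 222 CPM with cycloheximide, against 35.1, 38.3 and 27.4 CPM with triptolide alone. Its groups were widely separated (log2 change 2.47 ± 0.20, adjusted p = 1.32e-16), and 69.4% of the 0 h level was left with cycloheximide and 8.12% with triptolide alone. Nop56, a core protein of box C/D snoRNPs, changed by 2.30 ± 0.22 (adjusted p = 1.43e-13), and Wdr43, of the small-subunit processome, by 1.89 ± 0.18 (adjusted p = 1.03e-13). The 2 most abundant members, both nucleolar proteins, stood below the list's median. Npm1 changed by 0.54 ± 0.19 (adjusted p = 0.0256) and lost its call without replicate 3 of triptolide alone (adjusted p = 0.22) or without cycloheximide replicate 4. Ncl had a log2 change of -0.33 ± 0.47 (adjusted p = 0.639), which became -0.48 with the replicate block (adjusted p = 0.028).

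Of 22 aminoacyl-tRNA synthetases and their scaffold proteins, 13 were higher and none was lower (median log2 change 0.938). Tars, the threonyl-tRNA synthetase, had 257, 274 and 293 CPM with cycloheximide, against 71.4, 92.2 and 75.1 CPM with triptolide alone, a log2 change of 1.81 ± 0.22 (adjusted p = 2.15e-10). Sars changed by 1.33 ± 0.18 and the scaffold gene Aimp1 by 1.63 ± 0.25, and the enzyme for both glutamate and proline, Eprs, by 0.75 ± 0.17. Lars, for leucine, had a log2 change of 0.34 ± 0.20 (adjusted p = 0.2) and overlapping groups. Of 38 proteasome subunits, which form the protease that degrades ubiquitinated proteins, 25 were higher and none lower (median 0.795). Psmd12, of the regulatory lid, had 61.1, 55.8 and 28.2 CPM with cycloheximide, against 8.06, 8.70 and 8.88 CPM with triptolide alone, a log2 change of 2.48 ± 0.37 (adjusted p = 1.49e-07). The immunoproteasome subunit Psmb10 changed by 2.05 ± 0.30. Psmd8 changed by 0.61 ± 0.22 (adjusted p = 0.0274) and lost its call without replicate 3 of triptolide alone (adjusted p = 0.148) or without cycloheximide replicate 3 or 4.

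Among 25 chaperones 12 were higher and 1 was lower (median 0.677). Cct4, a subunit of the chaperonin that folds actin and tubulin, had 407, 454 and 478 CPM with cycloheximide, against 93.2, 74.8 and 84.7 CPM with triptolide alone. The spread within each group was small and the log2 change was 2.39 ± 0.16 (adjusted p = 3.41e-21). The constitutive Hsp70 gene Hspa8 had 1416, 1868 and 1495 CPM with cycloheximide, against 621, 525 and 550 CPM with triptolide alone (1.49 ± 0.26, adjusted p = 4.49e-06), whereas Hsp90ab1 had a log2 change of -0.13 ± 0.19 and was not called. The lower one was the heat-inducible Hspa1b, at -1.25, named after its value was seen. No chaperone was lower when any 1 triptolide library, or cycloheximide replicate 2 or 4, was left out.

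Translation factors divided. Of 50 tested, 22 were higher and 8 lower (26 and 13 with the block), with a median of 0.421. The lower calls numbered 4 without any 1 triptolide library and without cycloheximide replicate 3 or 4. Eif3d, a subunit of the initiation factor eIF3 that can bind the cap, had 283, 299 and 280 CPM with cycloheximide, against 59.3, 81.8 and 71.8 CPM with triptolide alone (2.04 ± 0.19, adjusted p = 3.82e-14). Eif2b5, of the exchange factor for eIF2, changed by 1.73 ± 0.21 and Eif3g by 1.58 ± 0.21. The 8 lower ones, named here after their values were seen, were Eif4ebp2 (-1.59), Pabpc1 (-1.42), Tpt1 (-0.87), Pabpc4 (-0.80), Eif4g2 (-0.79), Eif3j1 (-0.73), Eif3f (-0.52) and Eif5a (-0.42). They include both abundant poly(A)-binding proteins and an inhibitor of the cap-binding protein eIF4E. The elongation factors Eef1a1 and Eef2, the most abundant of the list, had log2 changes of -0.44 ± 0.22 (adjusted p = 0.127) and -0.21 ± 0.23 (adjusted p = 0.513), and Eef1a1 was called lower with the replicate block (-0.47, adjusted p = 0.0138).

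Cytoplasmic ribosomal proteins, whose short mRNAs are among the most stable in the cell, had no member called higher. Of 79 tested 19 were lower, and all had a negative log2 change, with a median of -0.512. With the replicate block 68 were lower, and 9 were lower without triptolide replicate 2 or 4, 8 without cycloheximide replicate 2 and 5 without cycloheximide replicate 4. Rps26, of the small subunit, had 193, 224 and 131 CPM with cycloheximide, against 345, 386 and 277 CPM with triptolide alone. These did not overlap (-0.88 ± 0.17, adjusted p = 3.21e-05), and Rpl28, of the large subunit, changed by -0.87 ± 0.19. Per ERCC count the list's median was 0.116, or 0.395 without replicate 3 of triptolide alone, so its direction turned with the scaling. The median member kept 85.3% of the 0 h level with cycloheximide and 78.5% with triptolide alone, or 65.5% with triptolide alone without its replicate 3. Rpl32 and Rpsa, the most abundant members, had log2 changes of -0.43 ± 0.59 (adjusted p = 0.623) and -0.57 ± 0.28 (adjusted p = 0.111), and were called lower with the replicate block (-0.61, adjusted p = 0.0484, and -0.64, adjusted p = 0.000785). Several of these genes have near-identical processed copies in the genome, so their counts are less certain than those of single-copy genes.

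Mitochondrial proteins are encoded in the nucleus and in mitochondrial DNA. Of 77 nuclear genes for mitochondrial ribosomal proteins 17 were higher and 1 lower (22 and 5 with the block; median 0.525), among them Mrpl3 (1.66 ± 0.20), Mrpl9 (1.90 ± 0.30) and Mrpl39 (2.17 ± 0.39). Of 76 nuclear genes for respiratory complexes 15 were higher (19.7%) and 5 lower (6.58%), beside 15.8% and 11.5% of all genes (median 0.0652). With the replicate block 21 were higher and 18 lower. Without triptolide replicate 2 or 3 or cycloheximide replicate 2 or 4, 13 to 17 were higher and 2 to 3 lower. Ndufa9 of complex I changed by 1.64 ± 0.22 and Uqcrc2 of complex III by 1.19 ± 0.19. Of the 13 mRNAs encoded in mitochondrial DNA, which mitochondrial polymerase makes and mitochondrial ribosomes read, none was higher and 12 were lower, with a median of -2.04. mt-Co1, a subunit of cytochrome c oxidase, had 3308, 2879 and 4063 CPM with cycloheximide, against 7525, 10480 and 8910 CPM with triptolide alone (-1.39 ± 0.26, adjusted p = 1.60e-05). mt-Nd1, of complex I, had 200, 142 and 175 CPM with cycloheximide, against 559, 1277 and 454 CPM with triptolide alone (-2.13 ± 0.36, adjusted p = 3.78e-06). Replicate 3 of triptolide alone was the highest of the 6 for both. As a share of exon counts these mRNAs made up 0.818, 0.742 and 0.911% with cycloheximide, against 1.58, 2.44 and 1.67% with triptolide alone, and 0.720 ± 0.0749% at 0 h (SD, n = 3). The difference was -1.07 percentage points (exact permutation test, two-sided, p = 0.1, the smallest possible with n = 3 each). Without replicate 3 of triptolide alone 10 of the 13 were lower and the median was -1.38, and with ERCC scaling as well none was called and the median was -0.441. Per ERCC count the median member stood at 60.4% of the 0 h level with cycloheximide and at 122% with triptolide alone, or 77.4% without its replicate 3.

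Among the 16 genes of replication licensing tested, 7 were higher and none lower (median 0.681), among them the helicase subunit Mcm6 (1.91 ± 0.25), Orc2 (1.32 ± 0.20) and Mcm7 (1.25 ± 0.22). Of 22 cyclins 2 were higher and 5 lower (median 0.0281), and 3 were lower without triptolide replicate 2 or 4 or cycloheximide replicate 3 or 4. Ccnl1, a cyclin of splicing kinases, changed by 1.72 ± 0.21 and Ccni by -1.33 ± 0.16. Ccnd2, a G1 cyclin, had 357, 84.7 and 159 CPM with cycloheximide, against 900, 586 and 535 CPM with triptolide alone, and its call (-1.75 ± 0.64, adjusted p = 0.0332) was lost when triptolide replicate 2, or cycloheximide replicate 3 or 4, was left out. Of 13 genes, tubulins and Ttc5, which recognises nascent tubulin chains on the ribosome, Tubb5 and Tuba1b (-0.91 ± 0.23) were lower and Ttc5 higher, and the median was -0.328 (0.343 per ERCC count, a change of direction). Without triptolide replicate 4 only 1 of the 3 calls, a lower one, was left. Tubb5 had 193, 318 and 272 CPM with cycloheximide, against 548, 703 and 764 CPM with triptolide alone (-1.37 ± 0.24, adjusted p = 4.71e-06). Ttc5 had 96.3, 158 and 100 CPM with cycloheximide, against 80.0, 52.2 and 43.6 CPM with triptolide alone (0.98 ± 0.29, adjusted p = 0.00839), and lost its call without triptolide replicate 4 or cycloheximide replicate 3.

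mRNAs for the decay machinery itself were called in both directions. Of 46 genes of deadenylation, decapping and the exosome 15 were higher and 5 lower, or 17 and 8 with the block (median 0.238). The lower calls numbered 2 to 3 without any 1 triptolide library and without cycloheximide replicate 3 or 4. Exosc10, the nuclear exonuclease of the exosome, had 147, 112 and 149 CPM with cycloheximide, against 43.2, 45.2 and 37.9 CPM with triptolide alone (1.70 ± 0.20, adjusted p = 6.63e-11). Cnot10, of the CCR4-NOT deadenylase, changed by 1.44 ± 0.15 and kept 91.6% of its 0 h level with cycloheximide and 21.6% with triptolide alone. Btg2, which recruits CCR4-NOT and is itself short-lived, had 25.0, 30.8 and 29.8 CPM with cycloheximide, against 77.7, 151 and 91.2 CPM with triptolide alone (-1.86 ± 0.26, adjusted p = 3.05e-08). The other lower genes of the list, chosen after their values were seen, were Dcp2 (-1.37), the decapping enzyme, and Cnot4 (-0.86), Cnot6 (-0.64) and Cnot6l (-0.59). Cnot1, the scaffold of the deadenylase, changed by 0.59 ± 0.22 (adjusted p = 0.0328) and lost its call without triptolide replicate 2, triptolide replicate 4 or cycloheximide replicate 2. Of 19 nonsense-mediated decay factors 8 were higher and none lower (median 0.417), among them Eif4a3 (2.14 ± 0.28) and Rnps1 (1.75 ± 0.25) of the exon junction complex and the release factor Etf1 (1.04 ± 0.16). Smg1, the kinase of the pathway, had a log2 change of -0.40 ± 0.22 (adjusted p = 0.166), called lower with the block (-0.41, adjusted p = 0.00818).

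Of 41 SR and hnRNP splicing proteins and their kinases 13 were higher and 3 lower (median 0.205), or 13 and 1 without triptolide replicate 4. Many of these genes carry poison exons, which send a spliced form to nonsense-mediated decay, but exon counts per gene do not separate such forms. Srsf7 had 172, 152 and 173 CPM with cycloheximide, against 55.3, 41.7 and 58.1 CPM with triptolide alone (1.65 ± 0.21, adjusted p = 2.08e-09). Srsf5 changed by 1.51 ± 0.19 and Rbm5 by 1.65 ± 0.19. Ptbp3 had a log2 change of -0.51 ± 0.16 (adjusted p = 0.00922), but 0.09 per ERCC count, and lost its call without triptolide replicate 4, cycloheximide replicate 2 or cycloheximide replicate 3.

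Of 15 RNA-binding regulators of AU-rich and stem-loop decay tested, 1 was higher, 6 were lower and 8 were not called, with a median of -0.514 (0.0598 per ERCC count, a change of direction). Without triptolide replicate 2 or cycloheximide replicate 3 none was higher and 3 were lower. Beside Zfp36, the lower ones held Zfp36l2 (-1.15 ± 0.29), of the same family, and Rc3h1 (Roquin-1, a binder of stem loops), which had 358, 221 and 363 CPM with cycloheximide, against 725, 633 and 603 CPM with triptolide alone (-1.06 ± 0.24, adjusted p = 0.000471). Rc3h2 (-0.96), Zfp36l1 (-0.90) and the stabilising factor Elavl1 (-0.71) were also lower and Zc3h12d (0.83) was higher, all named after their values were seen. Pum2 had a log2 change of -0.51 ± 0.24 (adjusted p = 0.104), called lower with the block (-0.56, adjusted p = 0.00074).

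Immediate early genes encode the first transcription factors induced by T cell receptor signals. Of 28 tested 1 was higher, 10 were lower and 17 were not called, with a median of -0.697. With the block 16 were lower, and 4 were lower without triptolide replicate 4 and 5 without cycloheximide replicate 2. Egr1 had 29.7, 37.8 and 24.1 CPM with cycloheximide, against 92.7, 115 and 111 CPM with triptolide alone. Both groups were tight and did not overlap, and the log2 change was -1.81 ± 0.28 (adjusted p = 4.53e-07). Junb, of the AP-1 factors, had 41.6, 87.2 and 63.7 CPM with cycloheximide, against 147, 278 and 335 CPM with triptolide alone (-1.98 ± 0.50, adjusted p = 0.00166). Per ERCC count the list's median was -0.0739 with all libraries and 0.347 without replicate 3 of triptolide alone, so its direction hung on that library. The median member kept 16.8% of its 0 h level with cycloheximide and 18.3% with triptolide alone, or 13.4% with triptolide alone without its replicate 3. Nr4a3 and Fosl2, the most abundant members, had log2 changes of -0.38 ± 0.48 (adjusted p = 0.59) and -0.67 ± 0.35 (adjusted p = 0.142), and were called lower with the block (-0.55, adjusted p = 0.0241, and -0.69, adjusted p = 0.00637).

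MAP kinase phosphatases, Sprouty proteins and SOCS proteins restrain the signals that induce them. Of 14 MAP kinase phosphatases and Sprouty proteins none was higher and 6 were lower, with a median of -0.911 (-0.261 per ERCC count, and 0.148 when replicate 3 of triptolide alone was left out as well). Dusp2 had 15.7, 28.9 and 18.2 CPM with cycloheximide, against 59.3, 103 and 120 CPM with triptolide alone. Dusp6 changed by -1.44 ± 0.38 and Spry1 by -1.35 ± 0.33, whereas Dusp5 had a log2 change of -0.37 ± 0.34 and overlapping groups. Of 11 SOCS and PIM genes Socs1 and Socs6 (-1.23 ± 0.32) were lower and none was higher (median -0.387, or 0.338 per ERCC count), and with the block 5 were lower. Cish had a log2 change of -1.56 ± 0.63 (adjusted p = 0.0553), called lower with the block (-1.55, adjusted p = 0.0217).

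Of 25 cytokine genes none was higher and 5 were lower, or 3 without triptolide replicate 4, with a median of -0.159 (0.638 per ERCC count). The lower ones were Lif, Tnf, Tgfb1, Mif and, named after its value was seen, the chemokine gene Xcl1 (-1.40). Tgfb1 had 57.3, 31.4 and 39.1 CPM with cycloheximide, against 96.1, 256 and 83.1 CPM with triptolide alone. Its log2 change of -1.70 ± 0.42 (adjusted p = 0.00121) rested on replicate 3 of triptolide alone, without which it was -1.03 ± 0.43 (adjusted p = 0.0732). Ltb, for lymphotoxin beta, had 70.0, 225 and 111 CPM with cycloheximide, against 32.8, 90.4 and 57.3 CPM with triptolide alone. Every replicate number was higher with cycloheximide, but the groups overlapped, and its log2 change of 1.23 ± 0.56 (adjusted p = 0.0927) was not called. Ltb was called higher with the block (1.12, adjusted p = 0.00252), without a filter on low counts (1.30, adjusted p = 1.2e-05), without cycloheximide replicate 2 (1.58, adjusted p = 0.0478) and with ERCC scaling (1.75, adjusted p = 0.0131, or 2.62, adjusted p = 0.000667, without replicate 3 of triptolide alone). NF-kB components and feedback genes went both ways, 5 higher (26.3%) and 2 lower (10.5%) of 19 (median 0.319). Of all genes 15.8% were higher and 11.5% lower, so the lower share was close to that of all genes. There were 5 and 4 with the block, 3 and 1 without triptolide replicate 2 and 5 and 1 without triptolide replicate 4. Without cycloheximide replicate 4 there were 4 higher and none lower. Nfkbid, a nuclear inhibitor protein of the family, had 747, 836 and 1020 CPM with cycloheximide, against 182, 344 and 321 CPM with triptolide alone (1.63 ± 0.30, adjusted p = 1.08e-05). Tnip1 changed by 1.44 ± 0.24 and Rela by 1.18 ± 0.25. The lower ones were Nfkbia (-1.01) and Tnfaip3 (-0.65), the classic feedback inhibitors, chosen after their values were seen.

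T cell receptor signalling genes were split, 7 higher (26.9%) and 4 lower (15.4%) of 26, beside 15.8% and 11.5% of all genes. The median was 0.215, and 6 were higher and 1 lower without triptolide replicate 3 or without cycloheximide replicate 4. Without cycloheximide replicate 3 there were 7 and 2. Ptpn22, a phosphatase that restrains the receptor, had 433, 413 and 544 CPM with cycloheximide, against 126, 164 and 135 CPM with triptolide alone (1.73 ± 0.19, adjusted p = 1.26e-11). Bcl10, an adaptor towards NF-kB, changed by 1.75 ± 0.31 and the kinase Zap70 by 0.77 ± 0.18. The kinase Fyn had 314, 318 and 274 CPM with cycloheximide, against 685, 722 and 696 CPM with triptolide alone (-1.21 ± 0.16, adjusted p = 4.57e-09), and 32.2% of its 0 h level was left per ERCC count with cycloheximide and 47.3% with triptolide alone, or 36.6% with triptolide alone without its replicate 3. With ERCC scaling Fyn was not called (-0.63, adjusted p = 0.11, and -0.18, adjusted p = 0.705, without replicate 3 of triptolide alone). Among 21 cytokine receptors 3 were higher (14.3%) and 3 lower (14.3%), close to the 15.8% and 11.5% of all genes, and none was lower without cycloheximide replicate 3 (1 without triptolide replicate 4; median -0.120, or 0.444 per ERCC count). Ifnar2, of the type I interferon receptor, changed by 2.38 ± 0.33, Ifngr1, of the interferon gamma receptor, by 1.96 ± 0.28 and Il4ra by 1.15 ± 0.23.

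Il2ra, Cd69 and Myc, chosen as activation genes, were all lower with cycloheximide relative to the typical mRNA. Both groups were of activated cells, so this comparison cannot check the activation label. With ERCC scaling Il2ra (-0.46, adjusted p = 0.498) and Myc (-0.56, adjusted p = 0.359) were not called. Without replicate 3 of triptolide alone as well, Cd69 was not called either (-0.62, adjusted p = 0.189). Il2ra, the alpha chain of the interleukin-2 receptor, had 338, 130 and 300 CPM with cycloheximide, against 566, 520 and 500 CPM with triptolide alone. Its call (-1.04 ± 0.38, adjusted p = 0.0297) was lost without replicate 3 of triptolide alone (adjusted p = 0.0584), and also without triptolide replicate 2, triptolide replicate 4 or cycloheximide replicate 3. Cd69, an early activation antigen, had 72.1, 50.7 and 79.7 CPM with cycloheximide, against 170, 297 and 255 CPM with triptolide alone (-1.81 ± 0.33, adjusted p = 1.57e-05). Myc had 16.5, 16.7 and 14.1 CPM with cycloheximide, against 30.5, 34.8 and 50.0 CPM with triptolide alone (-1.30 ± 0.36, adjusted p = 0.00374). Myc lost its call without triptolide replicate 4 or with coding-sequence counts (adjusted p = 0.099). Of the 29 activation markers as a list, 5 were higher (17.2%) and 4 lower (13.8%), close to the shares of all genes, or 9 and 7 with the block and 5 and 1 without triptolide replicate 4 (median -0.185, or 0.510 per ERCC count). Tnfrsf4 (OX40), a costimulatory receptor, changed by 1.55 ± 0.21 and Slc3a2, a chain of amino acid transporters, by 1.34 ± 0.24, while the glutamine transporter gene Slc1a5 changed by -1.0 ± 0.28 and lost its call without triptolide replicate 4. Odc1, the first enzyme of polyamine synthesis, had 2255, 2389 and 1880 CPM with cycloheximide, against 976, 1063 and 540 CPM with triptolide alone (1.34 ± 0.31, adjusted p = 0.0005), and kept 61.1% of its 0 h level with cycloheximide and 14.7% with triptolide alone.

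**Figure D3:**
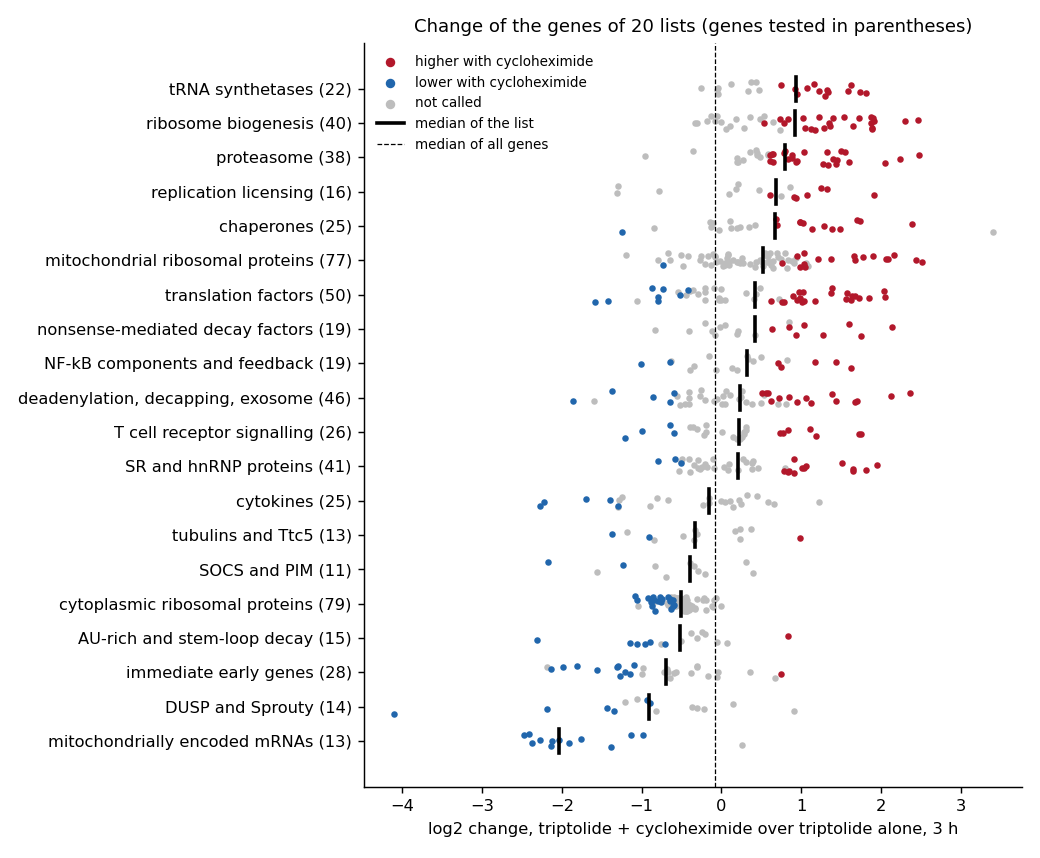
Log2 change with cycloheximide added to triptolide for every tested gene of 20 lists; red points were called higher, blue lower and grey not called. Thick bars are list medians, from 0.938 for tRNA synthetases to -2.04 for mitochondrially encoded mRNAs, and the dashed line is the median of all genes at -0.0808. Per ERCC count all genes have a median of 0.621, and among the lists shown to the left of the dashed line ribosomal proteins (0.116), AU-rich and stem-loop decay (0.0598), tubulins (0.343), SOCS and PIM genes (0.338) and cytokines (0.638) turn positive.

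**Figure D4:**
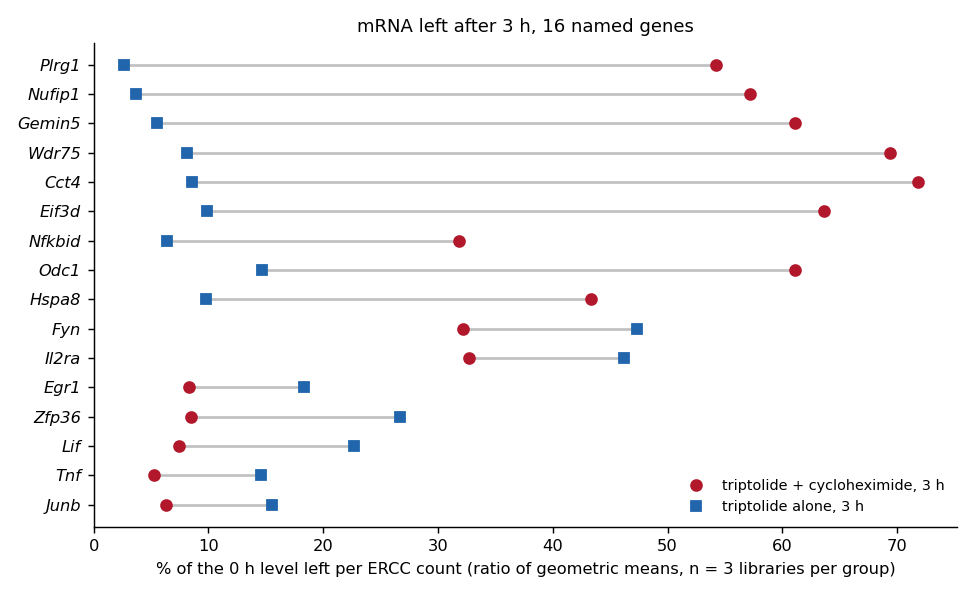
Percentage of the 0 h level left after 3 h per ERCC count for 16 named genes, with triptolide plus cycloheximide (red circles) and with triptolide alone (blue squares). The upper 9 genes kept more with cycloheximide (Plrg1 54.2% against 2.67%), the lower 7 less (Zfp36 8.49% against 26.7%). With ERCC scaling without replicate 3 of triptolide alone, only Tnf and Lif of the lower 7 were still called. Il2ra and Fyn then had log2 changes of -0.06 and -0.18, and neither was called with all libraries under ERCC scaling.

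Few genes were called in introns, which stand for RNA not yet spliced. Of 10750 genes with tested intron counts 32 were called (0.298%), 27 higher (0.251%) and 5 lower (0.0465%). The filter on low counts used the whole series, and with the compared libraries alone 4174 genes passed it and 9 were called. Many of the 10750 thus had few intron reads here, and the part of this in the low number of calls was not tested. Intron counts made up 25.8, 21.7 and 18.4% of gene counts with cycloheximide, against 33.7, 32.7 and 23.9% with triptolide alone, and 38.7 ± 8.3% at 0 h (SD, n = 3). The groups overlapped, and the difference of -8.16 percentage points gave p = 0.2 (exact permutation test, two-sided, n = 3 each). Within each replicate number the share was lower with cycloheximide, and exact sign flips gave p = 0.25, the smallest possible. Of the genes called higher in exons, 1569 had tested introns. Among them 14 were higher and 1 was lower in introns, and their median log2 change was 1.14 in exons and 0.0404 in introns. Of the 1121 genes lower in exons that had tested introns, 1 was higher and 1 lower in introns, with medians of -0.861 in exons and -0.0817 in introns.

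Several of the genes called in introns, all named after their values were seen, encode RNA-processing proteins. Luc7l, of the U1 snRNP, had 289 intron counts summed over 3 libraries with cycloheximide, against 57 with triptolide alone (2.31 ± 0.31, adjusted p = 3.17e-07), while its exons changed by 0.78. Chtop, an export factor, had 302 intron counts with cycloheximide, against 75 with triptolide alone (1.90 ± 0.31). Hnrnpdl (1.90 ± 0.32) and the m6A reader Ythdc1 (1.54 ± 0.28) were higher in introns and in exons too, as was Mrpl9 (3.11 ± 0.37 in introns). The 2 interferon regulatory factors called were lower in introns, Irf1 at -2.41 ± 0.57 and Irf4 at -1.63 ± 0.36. In exons Irf1 changed by -1.71 ± 0.28 and Irf4 had 0.53 ± 0.24 (adjusted p = 0.092). Introns that hold other genes or retained forms cannot be told from unspliced RNA in such counts.

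Between coding sequence and untranslated parts the exon counts did not shift detectably. Coding sequence took 67.9 ± 1.16% of exon counts with cycloheximide and 67.3 ± 1.96% with triptolide alone (SD, n = 3 each; exact permutation test, two-sided, p = 0.7). In annotated features, the genes that fell had longer 3′ UTRs, with a median of 1651 bases for the lower genes, 682 for the higher and 1010 for all genes tested. The nonamer was present in the 3′ UTR of 147 lower genes (12.4%) and of 75 higher genes (4.46%), compared with 787 of the 10374 tested genes with a 3′ UTR (7.59%). ATTTA was present in 77.8% of lower, 59.7% of higher and 67.1% of all. Longer 3′ UTRs have more room for either motif, and length and motif were not separated. Coding length had medians of 1668 bases for the lower, 1380 for the higher and 1404 for all genes.

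Adding cycloheximide to DRB, in libraries of which none is shared, gave 1893 calls (17.6%), 1126 higher (10.5%) and 767 lower (7.14%). Of the genes higher under triptolide, 949 were also higher under DRB, which is 55.9% of the triptolide list and 84.3% of the DRB list. Of the lower ones 458 were shared, 37.0% of the triptolide list and 59.7% of the DRB list, and no gene was called in opposite directions. Plrg1 changed by 2.62 ± 0.36 under DRB, Nufip1 by 2.18 ± 0.30, Gemin5 by 1.84 ± 0.22, Wdr75 by 2.10 ± 0.20 and Cct4 by 2.19 ± 0.16. Tnf was lower under DRB as well (-1.16 ± 0.35, adjusted p = 0.0143), but Zfp36 (-0.81 ± 0.33, adjusted p = 0.073), Lif (-0.79 ± 0.43, adjusted p = 0.193) and Egr1 (-0.45 ± 0.25, adjusted p = 0.211) were not called. No immediate early gene was called under DRB, where the list's median was -0.123. Of the ribosomal protein genes 54 were lower under DRB, and of the mitochondrially encoded mRNAs 8. The difference between the cycloheximide effects under the 2 transcription inhibitors was called for 8 genes (0.0745%), 7 with a positive difference (0.0652%) and 1 with a negative one (0.00931%), with 551 at an unadjusted p under 0.05. The negative one was Btg2, at -1.67 ± 0.36 (adjusted p = 0.0187), from -1.86 ± 0.26 under triptolide and -0.19 ± 0.25 under DRB. For the other 7, among them Ptpn22 (1.27 ± 0.26, adjusted p = 0.0124) and Wdr43 (1.21 ± 0.25, adjusted p = 0.0124), the change under triptolide was the more positive. For Zfp36, Lif and Egr1 the differences of -1.50, -1.49 and -1.36 were not called.

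Harringtonine added to triptolide, which shares the triptolide libraries with the comparison above, gave 2650 calls (24.7%), 1593 higher (14.8%) and 1057 lower (9.84%). Plrg1 changed by 3.39 ± 0.38 with harringtonine, Gemin5 by 2.88 ± 0.24, Cct4 by 2.39 ± 0.16 and Wdr75 by 2.98 ± 0.20. Set directly against harringtonine, cycloheximide libraries differed in 524 genes (4.88%), 364 higher (3.39%) and 160 lower (1.49%). Of the genes described above, some were lower with cycloheximide than with harringtonine, where the direct log2 change was -2.25 ± 0.38 for Tnf (adjusted p = 2.04e-05), -2.06 ± 0.41 for Zfp36 (adjusted p = 0.000288), -1.93 ± 0.28 for Egr1 (adjusted p = 3.70e-07), -1.85 ± 0.26 for Btg2 (adjusted p = 1.86e-07) and -1.43 ± 0.33 for Cd69 (adjusted p = 0.00276). With harringtonine over triptolide alone these 5 had log2 changes of 0.03, -0.25, 0.12, -0.02 and -0.38, none called. Others were higher with cycloheximide than with harringtonine, which can also come from a fall with harringtonine. They included Uqcrc1, of respiratory complex III (2.20 ± 0.26), the glycolytic Pgam1 (1.96 ± 0.22) and Ldha (1.42 ± 0.18) and the receptor gene Ifngr1 (1.48 ± 0.26). Over triptolide alone, Uqcrc1, Ldha and Ifngr1 were higher with cycloheximide, but Pgam1 was lower. Of the 21 glycolysis genes tested, 4 were lower and none was higher with harringtonine over triptolide alone. For Plrg1, Gemin5 and Cct4 the direct log2 changes were 0.14 ± 0.28, -0.09 ± 0.19 and 0.00 ± 0.15, none called.

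At 1 h, 1253 genes were called (11.7%), 1013 higher (9.43%) and 240 lower (2.23%), in libraries not shared with 3 h. Of the 1697 genes higher at 3 h, 614 were already higher at 1 h (36.2%, and 60.6% of those at 1 h), with none opposite. Of the 1239 lower at 3 h, 158 were lower at 1 h (12.8%, and 65.8% of those at 1 h) and 17 were higher. Immediate early genes were among those that differed in direction, with 9 higher and 1 lower at 1 h. Egr1 changed by 0.96 at 1 h (adjusted p = 0.015) and by -1.81 at 3 h, Cd69 by 1.67 (adjusted p = 0.000171) and -1.81, Myc by 1.51 (adjusted p = 0.00104) and -1.30, and Btg2 by 1.31 (adjusted p = 0.000104) and -1.86. The difference between the times was not tested. In resting cells at 3 h 3778 genes were called (35.2%), 2020 higher (18.8%) and 1758 lower (16.4%), and 1266 of those higher in activated cells were higher there too (74.6%, and 62.7% of the resting list), against 3 opposite. Of the lower ones 799 were shared (64.5%, and 45.4% of the resting list), again with 3 opposite. Ribosomal protein genes were lower in resting cells in 70 of 79 cases, and of the 28 immediate early genes none was called.

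Several mRNAs that were lower under triptolide were higher with cycloheximide alone. Cycloheximide alone for 3 h, against untreated activated cells at 3 h, gave 3225 calls (30%), 1616 higher (15%) and 1609 lower (15%), and these groups share no library with the comparison above. Egr1 changed by 3.69 with cycloheximide alone, Zfp36 by 3.65, Btg2 by 3.21, Ier2 by 3.05 and Junb by 2.78, with adjusted p from 9.32e-19 to 5.81e-06. Lif changed by 1.84, Dusp2 by 1.45, Cd69 by 1.13, Socs1 by 1.02 and Tnf by 0.70, with adjusted p from 2.28e-05 to 0.0344. Under triptolide all 10 were lower with cycloheximide, by the values given above. The genes of this paragraph were picked for a change of direction, after their values were seen. How many of all the lower genes turned in this way was not counted. The difference between the effects with and without triptolide was not tested. Gemin5, among the largest rises under triptolide, changed by -1.21 with cycloheximide alone (adjusted p = 6.83e-07), and Tars by -1.32 (adjusted p = 1.97e-07).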

How the data were processed

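Per the submitters' processing notes, the authors used TopHat2 2.0.13, Bowtie 1.1.1.0, HTSeq and the mm10 build. The deposited table holds whole-number read counts per gene, not normalized, over exons, coding sequence, untranslated regions and introns, for 22322 genes (22124 with a symbol) and 92 ERCC RNAs. Reads not assigned to the exons of a gene, for any reason and with intronic reads among them, made up 75.84 to 97.25% per library. Exon totals of the series ran from 6300 to 6479221.

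From these counts, genes were kept with filterByExpr by group, scaled with TMM factors and fitted over all 105 libraries as 35 group means in R 4.3.3 with edgeR 4.0.16, whose quasi-likelihood test was run with robust dispersions. P-values were adjusted over all genes tested (Benjamini-Hochberg, 0.05). All adjusted p-values are from edgeR unless DESeq2 1.42.0 is named. ERCC scaling used summed ERCC counts. The percentage left is the ratio of geometric means of counts per ERCC count, with 0.5 added. Single values per library were compared with exact permutation tests (scipy 1.17.1), two-sided. No sequence coordinate was converted, and transcripts are GENCODE on mm10, 1 per gene with the longest coding sequence. Every pair of replicates within the 2 groups differed by more than sampling noise (chi-square per degree of freedom 5.56 to 20.2). On simulated counts for 10741 genes the test recovered 60 of 100 genes changed 2-fold and 93 of 100 changed 4-fold, with 7 false calls. The planted changes lay only in genes above a minimum level with triptolide alone, with as many rises as falls. All other genes were simulated without a change, and no pairing by replicate number was simulated. These figures therefore do not cover genes at lower levels, widespread changes or paired libraries.

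Deviations from the group means correlated between libraries of the same replicate number in the compared groups. The r was 0.311, 0.145 and 0.398 for numbers 2, 3 and 4, and other pairings reached at most 0.0224. The labels call the numbers biological replicates, so the numbers were taken to pair the libraries. The main fit had no term for this pairing, so edgeR calls, SEs and adjusted p-values are unpaired unless the block is named. The block is given beside a result where it changes a call. Nothing says that the replicates came from separate mice, so p-values measure the spread between these libraries.

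The genes and gene lists were chosen with earlier results of these data known. Genes were named if called, without overlap between the groups, at 10 CPM or more in either group and among the 12 with the greatest change in each direction, leaving out predicted genes, pseudogenes and mitochondrially encoded genes. In each list the 3 smallest p-values and 2 highest CPM also chose a gene, as did the activation check, which uses Il2ra, Cd69 and Myc. A few genes chosen this way are not reported here. Alternatives tried were DESeq2, RLE factors, library size alone, ERCC scaling with and without replicate 3 of triptolide alone, no filter, the compared libraries alone, the replicate block, the series without its 2 shallowest libraries, coding-sequence counts and each library left out in turn.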

Additional observations from a re-analysis of the deposited data

Results flagged for a closer look

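For 8 genes the effect of cycloheximide under triptolide differed from that under DRB by a test of the difference itself (edgeR, 3 libraries in each of 4 groups). Btg2, a partner of the CCR4-NOT deadenylase, had a difference of -1.67 ± 0.36 (SE; adjusted p = 0.0187). The differences were 1.21 ± 0.25 for the ribosome biogenesis gene Wdr43 (adjusted p = 0.0124), 1.27 ± 0.26 for the phosphatase gene Ptpn22 (adjusted p = 0.0124) and 1.60 ± 0.30 for the T cell adaptor gene Grap (adjusted p = 0.00476). Grap had 537, 711 and 696 CPM with triptolide plus cycloheximide, against 138, 160 and 184 CPM with triptolide alone, and its log2 change was 2.01 ± 0.22 under triptolide and 0.41 ± 0.21 under DRB. The m6A reader gene Ythdf1 had a difference of 1.93 ± 0.40 (adjusted p = 0.013), from a log2 change of 1.63 ± 0.31 under triptolide and -0.30 ± 0.25 under DRB. Fbxo38 (1.29 ± 0.24, adjusted p = 0.00476), the RNA helicase gene Ddx24 (1.45 ± 0.31, adjusted p = 0.013) and Rexo4 (1.46 ± 0.30, adjusted p = 0.013) were the others.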

How the results depend on the processing

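For exons the count of 2936 calls stayed within 1.5 times under DESeq2 (2741), RLE factors (2915), library size alone (2808), no filter (2631), the compared libraries alone (2451), coding-sequence counts (2433), ERCC scaling (3752) and without the 2 shallowest libraries of the series (2958). Single libraries left out gave 1992 to 2921, the lowest without cycloheximide replicate 3. It was 4518 with the replicate block, which paired libraries by number, and 4861 with ERCC scaling without replicate 3 of triptolide alone. The share of calls that were higher was 57.8% as reported, 81.6% with library size alone, 99.0% with ERCC scaling and 47.5% with the block. For introns the 32 calls became 5 with ERCC scaling, 6 with ERCC scaling without replicate 3 of triptolide alone, 19 with RLE factors, 17 with library size alone, 9 with the compared libraries alone and 69 with the block, and 20 to 30 without single libraries (20 without cycloheximide replicate 3, 21 without triptolide replicate 2).

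The 8 differences between triptolide and DRB became 0 with ERCC scaling, with and without replicate 3 of triptolide alone, 1 with coding-sequence counts, 0 with the compared libraries alone and 35 with the block, and 0 to 14 without single libraries (0 without DRB replicate 4, 3 without triptolide replicate 2, 4 without DRB plus cycloheximide replicate 2, 5 without DRB replicate 2, triptolide replicate 4 or triptolide plus cycloheximide replicate 4, 14 without DRB replicate 3). The 524 differences between cycloheximide and harringtonine became 208 with the compared libraries alone and 1216 with the block, and 273 to 424 without single libraries, the lowest without harringtonine replicate 4. The coding share's difference of 0.679 points ranged from -0.03 without triptolide replicate 2 to 1.8 without triptolide replicate 4. Causes of these moves were not tested.

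Over 184 genes chosen by the naming rule, 2660 gene-by-setting results kept direction and call, 162 lost the call, 90 gained it and 23 turned direction. Those that turned under ERCC scaling without replicate 3 of triptolide alone included Spred1 (0.07), Zfp36l2 (0.11), Tuba1b (0.03), Rps26 (0.24), Rpl28 (0.17), Ptbp3 (0.42), Zfp106 (0.28), Pgam1 (0.30), Ccnt2 (0.19), Bcl2 (0.06), Foxp1 (0.41) and Acly (0.60), and, not called as reported, Mrpl24 (0.77), Eef2 (0.86), Bcl2l11 (1.07), Trp53inp1 (0.84), Tgfbr2 (1.13) and H2-K1 (0.91). With ERCC scaling alone Ptbp3 (0.09), Zfp106 (0.02), Acly (0.22) and Mrpl24 (0.63) turned as well. Of the genes chosen by the rule and given values above, the block changed no other call than those given beside them. At this depth 672633 exon counts in the shallowest library limit what can be said of genes under a few CPM.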

Other observations

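Other gene groups moved little or in both directions with cycloheximide added to triptolide. Of 25 genes of cholesterol and lipid synthesis 5 were higher and 3 lower, or 3 and 1 without triptolide replicate 2 (median log2 change 0.0800, beside -0.0808 for all genes). Fdft1, squalene synthase, had 22.5, 20.5 and 26.3 CPM with cycloheximide, against 5.18, 1.74 and 6.46 CPM with triptolide alone (2.21 ± 0.38, adjusted p = 3.11e-06, edgeR). Acly, which makes cytosolic acetyl-CoA, had -0.39 ± 0.14 (adjusted p = 0.0287) and lost its call without any 1 of cycloheximide replicates 2 and 4 or triptolide replicates 3 and 4. Of 16 genes of MHC class I presentation 1 was higher and 5 were lower, with 1 lower without triptolide replicate 4 and 2 without cycloheximide replicate 3 (median -0.180, or 0.462 per ERCC count). B2m, the light chain, had 1420, 1601 and 2432 CPM with cycloheximide, against 2919, 2792 and 4530 CPM with triptolide alone (-0.91 ± 0.25, adjusted p = 0.0033), and lost its call without triptolide replicate 4, while the peptide transporter gene Tap1 changed by 0.64 ± 0.19. Of 21 glycolysis genes 2 were higher and 1 was lower (2 and 6 with the replicate block; median 0.0996). Ldha had 421, 529 and 447 CPM with cycloheximide, against 248, 183 and 193 CPM with triptolide alone (1.16 ± 0.18, adjusted p = 2.45e-07), and Pgam1 changed by -0.70 ± 0.20, a call lost without triptolide replicate 4 or cycloheximide replicate 2.

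Of 54 replication-dependent histone genes, whose mRNAs lack a poly(A) tail and end in a stem loop, none was called (median 0.119, and 2 higher and 2 lower with the replicate block), whereas 15 were higher when cycloheximide was added to DRB. Numbered zinc finger genes gave 30 higher (10.8%) and 25 lower (9.03%) of 277, below the 15.8% and 11.5% of all genes (42 and 46 with the block; 20 and 16 without triptolide replicate 2, 27 and 15 without triptolide replicate 4, 26 and 11 without cycloheximide replicate 3; median 0.0568). Of 21 p53 targets 1 was higher and 4 were lower, or 1 to 2 lower without triptolide replicate 2 or 4 or cycloheximide replicate 3 or 4 (median -0.271, or 0.545 per ERCC count), with Sesn2 at 1.77 ± 0.28 and Btg2 among the lower. Among 16 stress-response mRNAs that nonsense-mediated decay is known to act on, 2 were higher and 3 lower (median -0.0366), or 1 higher and 1 to 2 lower without triptolide replicate 2 or 4 or cycloheximide replicate 3. Of these Ppp1r15a changed by -1.37 ± 0.32, and Atf4 had 0.38 ± 0.28 and was not called. Among 13 BCL2 family genes Bak1 was higher (1.12 ± 0.32) and Bcl2 lower (-0.85 ± 0.27), a call lost without triptolide replicate 2 or cycloheximide replicate 3. Of 27 genes of naive and quiescent T cells 1 was higher and 2 were lower, with Dgka at 1.01 ± 0.24. Pou3f4, singled out after its value was seen as the lowest point in the plot of change against level, averaged 16 ± 12.9 CPM with cycloheximide and 628 ± 1080 CPM with triptolide alone (SD, n = 3 each), and its groups overlapped.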
